A study of Mus musculus with 6 samples.

Results

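In a set of 6 sorted outer hair cell libraries, the 150 genes described here are those that stood lowest in 1 library, replicate 3 of the Insm1-KO group, relative to the other 5. Counts were turned into CPM, a gene's counts scaled to a common library total, and 2513 of 23337 gene symbols had a mean of at least 100 CPM over the 6 libraries. For each of these genes, the deviation was the log2(CPM + 1) value in KO replicate 3 minus the mean of the same value in the other 5 libraries. The 150 most negative deviations were taken, which is 5.97% of the 2513 genes. They are called members below. The members were chosen by their level in KO replicate 3, so that level is described here and not tested.

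Outer hair cells, which amplify sound in the cochlea by changing their length, were sorted from mouse organ of Corti at E18.5 by a GFP-Cre allele of Insm1, and their total RNA was sequenced after removal of ribosomal RNA. The groups were Insm1-KO (3 libraries) and Insm1-Het (3 libraries), and the allele used for sorting was present in both, so that the Het controls were not wild type. Insm1 encodes a zinc-finger transcription factor of nascent outer hair cells, and the series asks whether outer hair cells take on an inner hair cell identity without it. Whether a library stands for 1 animal, a pool or a litter is not in the labels, and the p-values below therefore reflect how these samples scatter, which could be technical scatter.

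As background, most of the proteins encoded by the members act in processes that every cell runs. The share of such genes among all 2513 was not counted. Heterogeneous nuclear ribonucleoproteins (hnRNPs) and SR proteins bind nascent transcripts and steer splicing, ubiquitin ligases mark proteins for the proteasome, and chaperones fold new chains as ribosomes release them. In hair cells the same machinery serves a large apical actin bundle, a microtubule-based kinocilium and steady membrane traffic to both ends of the cell.

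Promoters of 6 members are given because they span the roles described below: the members with the lowest deviations that have a listed promoter (Zfp329, Dhrs1 and Lrrc10b), a pair of hnRNP genes and a ribosomal protein gene. Each line holds the 100 bases upstream of the most upstream listed start, 5′ to 3′, from RefSeq on GRCm38.p6. Capitals mark matches, on either strand, to the motifs named after the sequences.

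Zfp329, chr7:12818861-12818960, minus strand: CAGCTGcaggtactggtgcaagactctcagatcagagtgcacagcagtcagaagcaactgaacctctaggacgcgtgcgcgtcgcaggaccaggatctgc
Dhrs1, chr14:55745685-55745784, minus strand: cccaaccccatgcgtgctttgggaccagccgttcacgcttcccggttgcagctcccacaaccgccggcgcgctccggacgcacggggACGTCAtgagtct
Lrrc10b, chr19:10457448-10457547, minus strand: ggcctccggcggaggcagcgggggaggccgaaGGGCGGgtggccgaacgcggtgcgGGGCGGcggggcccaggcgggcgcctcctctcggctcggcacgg
Hnrnpm, chr17:33685459-33685558, minus strand: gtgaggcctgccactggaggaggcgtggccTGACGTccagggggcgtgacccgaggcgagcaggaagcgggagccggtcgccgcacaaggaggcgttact
Hnrnpr, chr4:136310842-136310941, plus strand: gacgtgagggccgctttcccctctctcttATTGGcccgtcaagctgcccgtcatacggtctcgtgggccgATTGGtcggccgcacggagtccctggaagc
Rps3, chr7:99483710-99483809, minus strand: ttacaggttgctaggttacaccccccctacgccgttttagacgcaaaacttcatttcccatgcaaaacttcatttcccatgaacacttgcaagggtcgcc

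The capitals are CAGCTG in Zfp329, TGACGT or its reverse complement in Dhrs1 and Hnrnpm, GGGCGG in Lrrc10b and CCAAT read on the opposite strand in Hnrnpr, while the stretch shown for Rps3 holds none of the motifs searched.

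Together, the members took 1.25% of all counts in KO replicate 3, against 3.51 and 3.35% in KO replicates 1 and 2 and 3.50, 3.46 and 3.53% in Het replicates 1 to 3. The 5 other libraries, from both genotypes, thus lay close to each other, and KO replicate 3 lay below all of them. The median deviation of the members was -1.39, or 2.63-fold lower on the log2(CPM + 1) scale, beside -0.02 over all 2513 genes. It ran from -3.48 for Zfp329 to -1.13 at the edge of the list, which is 2.18-fold lower. Of the members, 15 were more than 4-fold lower in KO replicate 3 and 3 were more than 8-fold lower. In a bulk library, fewer cells of a type and less RNA per cell cannot be told apart.

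KO replicate 3 was the lowest of the 6 libraries for 149 of the 150 members, and for 31.6% of all 2513 genes. The exception was BC031181, with 58.8 CPM in KO replicate 3, 195 and 53.5 CPM in KO replicates 1 and 2 and 219.5, 159.8 and 216 CPM in Het replicates 1 to 3. The members had 103 to 3900 counts in KO replicate 3, with a median of 620.5. Poisson intervals on such counts cover counting error only, since amplified reads that carry no molecular identifier cannot be counted as separate molecules.

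Outside KO replicate 3, the members varied about as much as other genes. The SD of log2(CPM + 1) over the 5 other libraries had a median of 0.28 over the members and 0.28 over all 2513 genes. For 112 members, the highest of the other 5 libraries was less than 2-fold above the lowest. The widest spread belonged to Ext2, with an SD of 1.39.

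**Figure D1:**
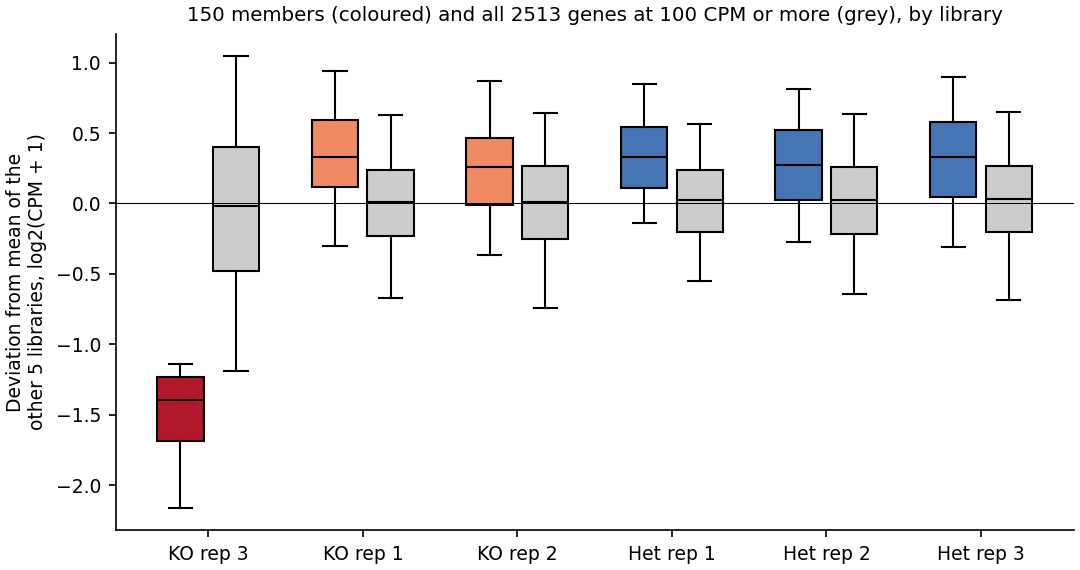
Deviation of each library from the mean of the other 5 on the log2(CPM + 1) scale, for the 150 members (coloured) and for all 2513 genes with a mean of at least 100 CPM (grey); boxes are quartiles with the median, whiskers the range from the lowest to the highest value after the outer 5% at each end. The members' median is -1.39 in KO replicate 3, by the rule that chose them, and 0.26 to 0.33 in the other libraries, where the mean of the other 5 holds KO replicate 3.

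The same distance was rarely reached in the other libraries. Taking each library in turn against the mean of its other 5, 150 genes lay at or below the member threshold in KO replicate 3 and 94 lay as far above. KO replicates 1 and 2 had 19 and 20 genes that far below and 3 and 7 that far above, and Het replicates 1 to 3 had 10, 7 and 17 below and 1, 2 and 15 above. The SD of the deviations over the 2513 genes was 0.69 in KO replicate 3, against 0.39 and 0.42 in KO replicates 1 and 2 and 0.35, 0.38 and 0.40 in the Het libraries. The 150 in KO replicate 3 was fixed by the rule, while the counts in the other libraries and the SDs were not. For those libraries the mean of the other 5 holds KO replicate 3, which makes low deviations of the members harder to reach. Within these limits, KO replicate 3 stood apart in both directions.

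**Figure D2:**
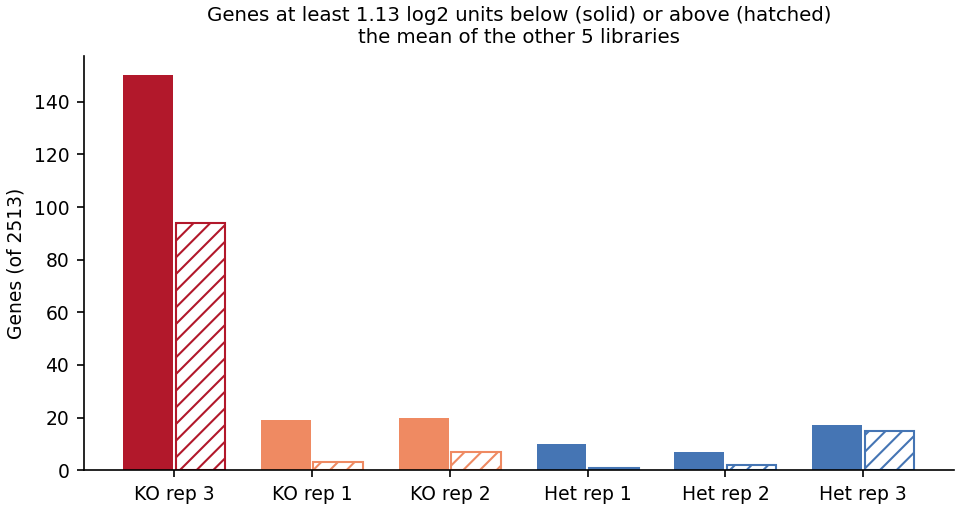
Number of genes, of 2513, at least 1.13 log2 units below (solid) or above (hatched) the mean of the other 5 libraries, for each library. KO replicate 3 has 150 below, by the rule, and 94 above, while no other library has more than 20 below or 15 above.

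The libraries held 7705177 to 12427039 counts, with 9748629 in KO replicate 3, which also had the fewest genes detected (12126, against 12640 to 13763). The precursor of ribosomal RNA, Rn45s, took 1.89% of counts in KO replicate 3 and 1.998 to 3.09% elsewhere. Insm1 itself, which is no member because its mean was under 100 CPM, had 17.2 CPM in KO replicate 3, 79.6 and 59.96 CPM in KO replicates 1 and 2 and 114, 116 and 70.5 CPM in Het replicates 1 to 3, so that KO replicate 3 was also the lowest library for the targeted gene, while KO replicate 1 lay above Het replicate 3. Whether the counted exon is deleted in the KO allele is not in the labels. Of 16 outer hair cell markers none was at 0 in KO replicate 3, and they summed to 1304 CPM in KO replicate 3, against 1323 to 1611 CPM in the others. The sum of 31 general hair cell markers was 19835 CPM in KO replicate 3, against 17419 to 19398 CPM. That of 13 inner hair cell markers was 1742 CPM in KO replicate 3, against 1182 to 1572 CPM. Of these 13, Slc17a8, Nhlh2 and Atp2a3 were at 0 in KO replicate 3, and 2 to 4 were at 0 in the others. Supporting cell markers (30 genes, 3 at 0) summed to 4444 CPM in KO replicate 3, against 3073 to 3837 CPM, and melanocyte and stria markers (15 genes, 9 at 0, Tyr and Pmel among them) to 1286 CPM in KO replicate 3, against 731 to 913 CPM. The mesenchyme list (20 genes, 10 at 0) reached 859 CPM in KO replicate 3, against 895 to 1719 CPM, and the neuron list (25 genes, 6 at 0, Tubb3 among them) 1958 CPM in KO replicate 3, against 1603 to 2188 CPM. Erythroid, endothelial and immune markers summed to 2.56, 31.4 and 126 CPM in KO replicate 3, each within the range of the other libraries, with globin genes Hba-a1 and Hbb-b1 and the leukocyte gene Ptprc at 0. The general hair cell, inner hair cell, supporting cell, and melanocyte and stria sums were thus highest in KO replicate 3. The outer hair cell and mesenchyme sums were lowest in it. The outer hair cell list holds Insm1 itself, and without Insm1 KO replicate 3 was not the lowest library for that sum. The part of these sums in the members' values was not tested.

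No member belongs to the marker lists of outer hair cells, inner hair cells, supporting cells, neurons, glia, melanocytes and stria, or mesenchyme. Those lists had only 5, 4, 10, 3, 1, 3 and 2 genes at 100 CPM or more. The erythroid, endothelial and immune lists had 0 such genes and could hold no member. Of the general hair cell list, 2 of 26 were members. With so few genes that could be chosen, these counts cannot decide whether the members mark a cell type. By role, 20 act in transcription and chromatin, 20 in the ubiquitin and proteasome system, and 20 in membrane traffic, the lysosome and glycosylation. A further 13 process or bind RNA, 15 belong to translation, the ribosome and folding, 15 to metabolism and mitochondria and 15 to the cytoskeleton, centrosome and cilium. Signalling, adhesion and the cell cycle hold 16, nuclear transport 2, and 14 were not assigned a role. These classes were made after the members were known and describe them only. The median deviation lay between -1.54 and -1.33 in every class, so that no class stood far below another.

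Genes of transcription and chromatin include the lowest member. As a class, their summed level was 1865 CPM in KO replicate 3, 5561 and 4967 CPM in KO replicates 1 and 2 and 5243, 5481 and 5606 CPM in Het replicates 1 to 3. Zfp329, a zinc-finger gene, had 10.6 CPM in KO replicate 3, 152 and 146 CPM in KO replicates 1 and 2 and 117, 52.98 and 246 CPM in Het replicates 1 to 3. Its 103 counts in KO replicate 3 give a 95% Poisson interval of 8.62 to 12.8 CPM, and the Het libraries alone spanned more than 4-fold. Zfp191, now named Zfp24, was the other member of the Zfp list, with 28.6 CPM in KO replicate 3, against 91.4 to 175 CPM over the other 5 libraries.

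Several chromatin proteins that package or modify nucleosomes were among the members. Sub1, the coactivator PC4 that binds single-stranded DNA, had 132 CPM in KO replicate 3, 397 and 332 CPM in KO replicates 1 and 2 and 706, 626 and 433 CPM in Het replicates 1 to 3. All 3 Het libraries lay above both other KO libraries for Sub1, and KO replicate 3 lay below those. Hdac2, a histone deacetylase, had 97.2 CPM in KO replicate 3, 249 and 207 CPM in KO replicates 1 and 2 and 314, 325 and 314 CPM in Het replicates 1 to 3, and the order of the groups was the same. Cbx5, which encodes the heterochromatin protein HP1 alpha, had 164 CPM in KO replicate 3, 353 and 442 CPM in KO replicates 1 and 2 and 362, 500.4 and 336 CPM in Het replicates 1 to 3. Anp32e, a chaperone that removes the histone variant H2A.Z, had 199 CPM in KO replicate 3, against 427 to 626 CPM over the other 5 libraries, and the linker histone gene Hist1h1e (now H1f4) had 56.9 CPM in KO replicate 3, against 59.97 to 175 CPM over the other 5 libraries. For Hist1h1e, Het replicate 2 was nearly as low as KO replicate 3, at 59.97 CPM. Srebf2, the sterol-regulated transcription factor SREBP2, had 89.9 CPM in KO replicate 3, against 185 to 359 CPM over the other 5 libraries. Of 58 chromatin regulators at 100 CPM or more, 2 were members (3.45%, beside 5.97% of all genes), and 4 were among the 150 highest deviations, so the list was not drawn one way.

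The RNA splicing and hnRNP list had 8 members of 55 genes at 100 CPM or more, or 14.5%, and 0 among the 150 highest deviations. Its median deviation was -0.38, and 38 of the 55 lay below 0, beside 50.8% of all 2513 genes. The 6 hnRNP members on the list were Hnrnpm, Hnrnpr, Hnrnpd, Hnrnph1, Hnrnpa0 and Hnrnpa2b1, and the SR protein members were Srsf1 and Srsf3. Hnrnpul2, a member with an hnRNP name that the list does not hold, had 122 CPM in KO replicate 3, 291 and 453 CPM in KO replicates 1 and 2 and 287, 218 and 417 CPM in Het replicates 1 to 3. Hnrnpm, a regulator of alternative splicing, had 63.8 CPM in KO replicate 3, 194 and 245 CPM in KO replicates 1 and 2 and 174, 257 and 214 CPM in Het replicates 1 to 3. Hnrnpd, also known as AUF1, binds AU-rich elements of short-lived messenger RNAs and had 159 CPM in KO replicate 3, 412 and 379.7 CPM in KO replicates 1 and 2 and 354, 565 and 455 CPM in Het replicates 1 to 3. In both genes, KO replicates 1 and 2 lay inside the Het range while KO replicate 3 was less than 0.5 times the lowest other library.

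Hnrnph1, which binds G-rich stretches of transcripts, had 266 CPM in KO replicate 3, 596 and 737 CPM in KO replicates 1 and 2 and 655, 624 and 725 CPM in Het replicates 1 to 3. Hnrnpa2b1, among the most abundant members by counts, had 393 CPM in KO replicate 3, 809 and 1224 CPM in KO replicates 1 and 2 and 645, 760.5 and 1083 CPM in Het replicates 1 to 3. The spread of Hnrnpa2b1 over the other 5 libraries was wide, at 904 ± 240.4 CPM (SD, n = 5), and KO replicate 3 lay below all of them. Srsf3 was tighter, with 129.6 CPM in KO replicate 3, against 352 ± 20.9 CPM in the other 5 (SD, n = 5), and Srsf1 had 75.7 CPM against 214 ± 28.6 CPM. Hnrnpr had 48.4 CPM in KO replicate 3, against 111 to 184 CPM over the other 5 libraries. The hnRNP genes have close copies and processed pseudogenes, so their counts depend on how reads with several matches were assigned, which the sources used here do not state. As a class of 13, the RNA-binding members summed to 1622 CPM in KO replicate 3, 4052 and 4705 CPM in KO replicates 1 and 2 and 3879, 3965 and 4708 CPM in Het replicates 1 to 3.

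Of the ubiquitin system list, 7 of 48 genes were members (14.6%, beside 5.97% of all genes), among them Herc2, Usp24, Ube2k, Cul4a, Cul4b and Fbxo2. None of the 48 was among the 150 highest deviations, and the list's median deviation was -0.18, with 31 genes below 0. Cul4a and Cul4b are paralogous scaffolds of the same family of ubiquitin ligases, and both were members. Cul4a had 108 CPM in KO replicate 3, 263 and 269 CPM in KO replicates 1 and 2 and 253, 243 and 216 CPM in Het replicates 1 to 3. Cul4b had 63.5 CPM in KO replicate 3, 152 and 129.8 CPM in KO replicates 1 and 2 and 133, 126 and 186 CPM in Het replicates 1 to 3. The other 5 libraries lay close together for both scaffolds, with 249 ± 20.8 CPM for Cul4a and 145 ± 24.9 CPM for Cul4b over the other 5 libraries (SD, n = 5). Herc2, a giant ubiquitin ligase, had 104 CPM in KO replicate 3, against 185 to 365 CPM over the other 5 libraries. Rnf114, a RING-type ligase, had 30.7 CPM in KO replicate 3, against 101 to 156 CPM over the other 5 libraries. The clone symbol 4933439F18Rik, now Gid4, the substrate receptor of another ligase, had 67.9 CPM in KO replicate 3, against 206 to 267 CPM over the other 5 libraries.

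The proteasome list had only 13 genes at 100 CPM or more, of which Psma7 and Psmc5 were members (15.4%, beside 5.97% of all genes). The list's median deviation was -0.56, 10 of the 13 lay below 0, beside 50.8% of all genes, and 0 were among the highest deviations. Psma7, an alpha subunit of the 20S core, had 31.3 CPM in KO replicate 3, 125 and 112 CPM in KO replicates 1 and 2 and 147, 147 and 198 CPM in Het replicates 1 to 3. Psmc5, an ATPase of the 19S cap, had 69.9 CPM in KO replicate 3, 176 and 179 CPM in KO replicates 1 and 2 and 219, 148 and 145 CPM in Het replicates 1 to 3. Psma7 was thus 4.47-fold and Psmc5 2.43-fold lower in KO replicate 3. For Psma7, KO replicates 1 and 2 both lay below every Het library, and for Psmc5 both lay inside the Het range.

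Among 25 ribosomal protein genes at 100 CPM or more, 3 were members, Rps3 and Rps3a of the small subunit among them. They make up 12% of the list, beside 5.97% of all genes. The list's median deviation was -0.12, with 13 of 25 genes below 0, beside 50.8% of all genes. Rps3 had 328 CPM in KO replicate 3, 1074 and 777 CPM in KO replicates 1 and 2 and 1012, 1155 and 923 CPM in Het replicates 1 to 3. Rps3a had 117 CPM in KO replicate 3, 275 and 219 CPM in KO replicates 1 and 2 and 276, 261 and 284 CPM in Het replicates 1 to 3. The other ribosomal protein genes at 100 CPM or more did not move as a block, and the list's median lay near that of all genes. Exons of Rps3 overlap an annotated small nucleolar RNA gene, and ribosomal protein genes have processed copies elsewhere, so these counts are uncertain to that extent.

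Translation factors and chaperones were also found among the members. Eif2s1, the regulatory alpha subunit of eIF2, had 60.8 CPM in KO replicate 3, 176 and 159.5 CPM in KO replicates 1 and 2 and 169, 153 and 121 CPM in Het replicates 1 to 3. Eef1g, a subunit of elongation factor 1, had 100.0 CPM in KO replicate 3, against 175 to 279 CPM over the other 5 libraries. Those were 2 of 30 translation factors (6.67%), near the share of all genes. Cct8, a subunit of the TRiC chaperonin that folds actin and tubulin, had 80.7 CPM in KO replicate 3, 229.7 and 228 CPM in KO replicates 1 and 2 and 258, 200.2 and 254 CPM in Het replicates 1 to 3. Dnajb4, an Hsp40 co-chaperone, had 35.8 CPM in KO replicate 3, against 88.8 to 161 CPM over the other 5 libraries. Tbca, a tubulin-folding cofactor, had 51.8 CPM in KO replicate 3, against 110.4 to 181 CPM over the other 5 libraries. The 15 members of this class summed to 1179 CPM in KO replicate 3, 3400.2 and 3139 CPM in KO replicates 1 and 2 and 3417, 3409 and 3329 CPM in Het replicates 1 to 3.

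In metabolism, the glycolysis and pyruvate list had the largest share of members among lists with at least 8 genes at 100 CPM or more. It was 3 of 9, beside 5.97% of all genes, although the list is short. Dld, the dihydrolipoamide dehydrogenase shared by several mitochondrial complexes, had 59.4 CPM in KO replicate 3, 174 and 172 CPM in KO replicates 1 and 2 and 202, 206 and 175 CPM in Het replicates 1 to 3. Ldha, which interconverts pyruvate and lactate, had 161 CPM in KO replicate 3, 449.9 and 349 CPM in KO replicates 1 and 2 and 404, 299 and 423 CPM in Het replicates 1 to 3. Pdhb, the beta subunit of pyruvate dehydrogenase, had 54.3 CPM in KO replicate 3, against 111 to 158 CPM over the other 5 libraries. Of the 9 genes, 8 had a deviation below 0 and the median was -0.52. The 13 genes of the tricarboxylic acid cycle and mitochondrial matrix list held 0 members and 2 of the highest deviations, with a median of 0.44.

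Atp5d and Atp5c1, the delta and gamma subunits of the rotary ATP synthase, were 2 members of 17 oxidative phosphorylation genes at 100 CPM or more (11.8%, beside 5.97% of all genes). Atp5d had 34.9 CPM in KO replicate 3, against 76.04 to 154 CPM over the other 5 libraries. Atp5c1 had 131 CPM in KO replicate 3, against 252 to 385 CPM over the other 5 libraries. Dhrs1, a short-chain dehydrogenase, ranked next to the lowest of all members, with 13.5 CPM in KO replicate 3, 144 and 104 CPM in KO replicates 1 and 2 and 146, 102 and 124 CPM in Het replicates 1 to 3. Over the other 5 libraries it held 124 ± 21.1 CPM (SD, n = 5), and it was 8.50-fold lower in KO replicate 3. Icmt, which methylates prenylated proteins, had 44.7 CPM in KO replicate 3, against 149 to 243 CPM over the other 5 libraries, and Azin1, an inhibitor of antizyme in polyamine control, had 25.03 CPM in KO replicate 3, against 84.1 to 154 CPM over the other 5 libraries.

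**Figure D3:**
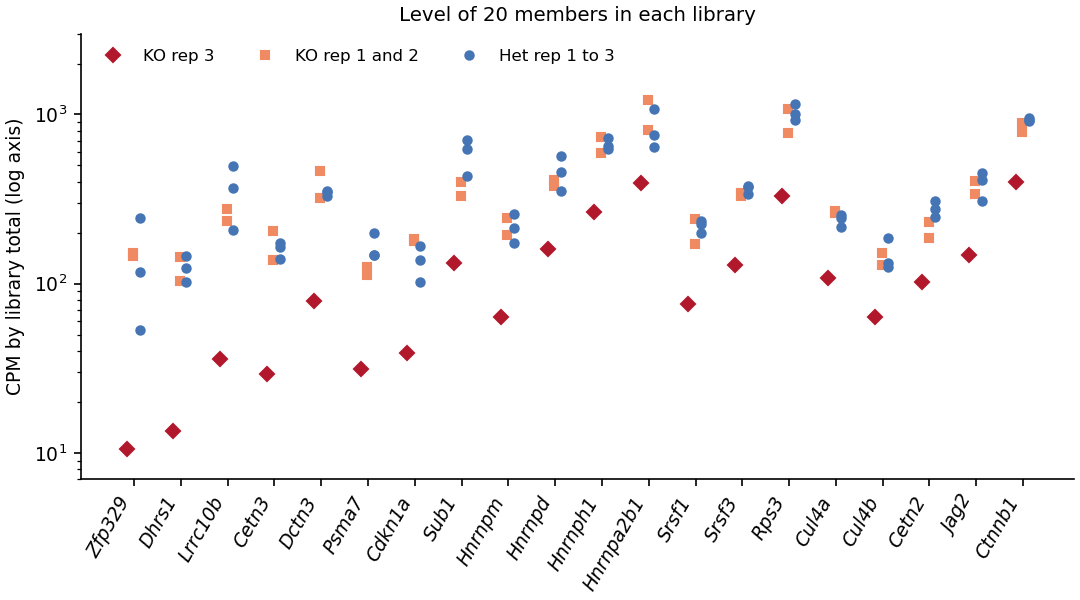
Level in CPM by library total, on a log axis, of 20 members in KO replicate 3 (diamonds), KO replicates 1 and 2 (squares) and Het replicates 1 to 3 (circles). For each of the 20 genes the diamond lies below every other point. The rule favours this but does not require it, and KO replicate 3 was the lowest library for 149 of the 150 members. Squares and circles overlap or neighbour each other. Heights are not comparable between genes because the counts are not per length.

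Members of membrane traffic and glycosylation included both subunits of the heparan sulfate polymerase. Ext1 had 78.9 CPM in KO replicate 3, 271 and 209.6 CPM in KO replicates 1 and 2 and 254, 166 and 170.4 CPM in Het replicates 1 to 3. Ext2 had 25.7 CPM in KO replicate 3, 71.4 and 681 CPM in KO replicates 1 and 2 and 90.4, 87.2 and 71.5 CPM in Het replicates 1 to 3. For Ext2, KO replicate 2 stood alone at 681 CPM and the other 4 libraries outside KO replicate 3 lay between 71.4 and 90.4 CPM, so the size of its deviation leans on that library. With all libraries the deviation of Ext2 was -2.21, and without KO replicate 2 it was -1.59, with a mean of 69.3 CPM that would have kept it out of the 2513 genes. It was the 1 member whose deviation moved by more than 1.5 times when any 1 of the other libraries was left out. Clta, a clathrin light chain, had 55.9 CPM in KO replicate 3, against 127 to 185 CPM over the other 5 libraries. Sar1a, the GTPase that starts the COPII coat, had 66.7 CPM in KO replicate 3, against 107 to 225 CPM over the other 5 libraries. They were 2 of 47 genes of coats and Golgi traffic (4.26%), and 4 of the 47 were among the highest deviations. The lysosomal membrane protein gene Tmem106b had 33.5 CPM in KO replicate 3, against 86.4 to 157 CPM over the other 5 libraries, while the list of 20 lysosome and autophagy genes held 0 members.

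Cadps2, which primes dense-core vesicles for release, had 109 CPM in KO replicate 3, 155 and 225 CPM in KO replicates 1 and 2 and 239, 309 and 319 CPM in Het replicates 1 to 3. Here KO replicate 1 was also low, at 155 CPM, and KO replicates 1 and 2 lay below all Het libraries. It was the 1 member of 8 secretory granule genes at 100 CPM or more (12.5%, beside 5.97% of all genes). No gene of the synapse list (0 of 16), the ion pump and channel list (0 of 20) or the solute carrier list (0 of 33) was a member. With 5.97% of all genes as members, lists this short would hold few, so a 0 decides little. Among the 150 highest deviations were 4, 3 and 2 genes of these lists.

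On the actin and tubulin list, 4 of 47 genes at 100 CPM or more were members (8.51%, beside 5.97% of all genes), Actr3, Tbca, Rdx and Arpc5, and 1 was among the 150 highest. The list's median deviation was 0.02. Both centrins among the members are calcium-binding proteins of centrioles. Cetn3 had 29.2 CPM in KO replicate 3, 139 and 204 CPM in KO replicates 1 and 2 and 165, 139 and 175 CPM in Het replicates 1 to 3. Cetn2 had 102 CPM in KO replicate 3, 185 and 231 CPM in KO replicates 1 and 2 and 275, 308 and 248 CPM in Het replicates 1 to 3. The 2 genes differed in size of deviation, -2.43 for Cetn3 and -1.27 for Cetn2, and Cetn2 alone had both other KO libraries below every Het library. Dctn3, a subunit of the dynein activator dynactin, had 78.9 CPM in KO replicate 3, 464 and 321 CPM in KO replicates 1 and 2 and 351, 328 and 348 CPM in Het replicates 1 to 3. Dctn3 was steady in the other 5 libraries, at 362 ± 58.2 CPM (SD, n = 5), and 4.51-fold lower in KO replicate 3.

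Bbs1, a subunit of the BBSome that carries membrane proteins through cilia, had 169.8 CPM in KO replicate 3, against 325 to 429.9 CPM over the other 5 libraries. Alms1, a basal body protein, had 39.8 CPM in KO replicate 3, against 56.3 to 157 CPM over the other 5 libraries, with KO replicate 2 close to KO replicate 3 at 56.3 CPM. They were 2 of 14 cilium genes at 100 CPM or more (14.3%, beside 5.97% of all genes). Actr3, the Arp3 subunit of the actin-branching complex, had 104 CPM in KO replicate 3, against 222 to 381 CPM over the other 5 libraries, and Kif2a, a kinesin that shortens microtubules, had 69.04 CPM in KO replicate 3, against 125 to 257 CPM over the other 5 libraries. Rdx encodes radixin, which ties the plasma membrane to actin at the base of stereocilia, and had 132 CPM in KO replicate 3, 367 and 220.2 CPM in KO replicates 1 and 2 and 282, 317 and 299 CPM in Het replicates 1 to 3. It was the 1 member of 28 hair bundle and mechanotransduction genes (3.57%), whose median deviation was 0.08.

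Among signalling genes, 3 members touch Notch or Wnt signalling, of 23 genes on the list for Notch, Wnt, FGF and BMP pathways. That is 13.0%, beside 5.97% of all genes, and 4 of the 23 were among the highest deviations. Jag2, the Notch ligand that hair cells present to their neighbours, had 148 CPM in KO replicate 3, 337 and 403 CPM in KO replicates 1 and 2 and 452, 413 and 307 CPM in Het replicates 1 to 3. Mib1, the ubiquitin ligase that activates Notch ligands by endocytosis, had 28.5 CPM in KO replicate 3, 156 and 98.6 CPM in KO replicates 1 and 2 and 129, 124 and 75.5 CPM in Het replicates 1 to 3. Ctnnb1, beta-catenin, had 400.1 CPM in KO replicate 3, 896 and 788 CPM in KO replicates 1 and 2 and 923, 918 and 953 CPM in Het replicates 1 to 3. Its partner at adherens junctions, Ctnna1, had 66.6 CPM in KO replicate 3, against 92.3 to 228 CPM over the other 5 libraries. Ctnnb1 was among the steadiest of these genes in the other 5 libraries, at 895 ± 63.2 CPM (SD, n = 5).

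Shoc2 and Ppp1cb encode parts of a phosphatase complex of the Ras pathway. Ppp1cb, a catalytic subunit of protein phosphatase 1, had 326 CPM in KO replicate 3, 702 and 651 CPM in KO replicates 1 and 2 and 847, 959.7 and 809 CPM in Het replicates 1 to 3. Shoc2, its leucine-rich scaffold, had 218 CPM in KO replicate 3, against 408 to 601 CPM over the other 5 libraries. Cdkn1a, the cell cycle inhibitor p21 and a target of p53, had 38.7 CPM in KO replicate 3, 184 and 178 CPM in KO replicates 1 and 2 and 166, 102 and 138 CPM in Het replicates 1 to 3. It was the 1 member of 10 p53 and apoptosis genes at 100 CPM or more, whose median deviation was 0.01. Btg1, an antiproliferative gene on the immediate early and dissociation list, had 44.7 CPM in KO replicate 3, against 99.3 to 128 CPM over the other 5 libraries, and it was 1 of 7 on that list. Mrfap1 had 196 CPM in KO replicate 3, against 549 to 812 CPM over the other 5 libraries. Lrrc10b, a leucine-rich repeat gene, had 35.7 CPM in KO replicate 3, 235 and 276 CPM in KO replicates 1 and 2 and 369.8, 208 and 494 CPM in Het replicates 1 to 3, and its Het libraries differed by more than 2-fold. The clone symbol 5930434B04Rik (now Cacfd1) had 40.6 CPM in KO replicate 3, against 119.6 to 213 CPM over the other 5 libraries. Tmem206 (now Pacc1), a proton-activated chloride channel, had 44.01 CPM in KO replicate 3, against 66.7 to 143 CPM over the other 5 libraries.

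Of 26 general hair cell genes at 100 CPM or more, 2, Jag2 and Fbxo2, were members (7.69%, beside 5.97% of all genes), and 2 others were among the highest deviations. Fbxo2, an F-box protein that recognises sugar chains, had 110.1 CPM in KO replicate 3, 253 and 267 CPM in KO replicates 1 and 2 and 273, 216 and 228 CPM in Het replicates 1 to 3. The list's median deviation was 0.08. The 5 outer hair cell, 4 inner hair cell, 10 supporting cell and 27 otic transcription factor genes at 100 CPM or more held 0 members. Among the 150 highest deviations were 0, 0, 2 and 2 of them. In all, 28 of 54 lists held a member, and 61 of the 150 members were on any list.

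**Figure D4:**
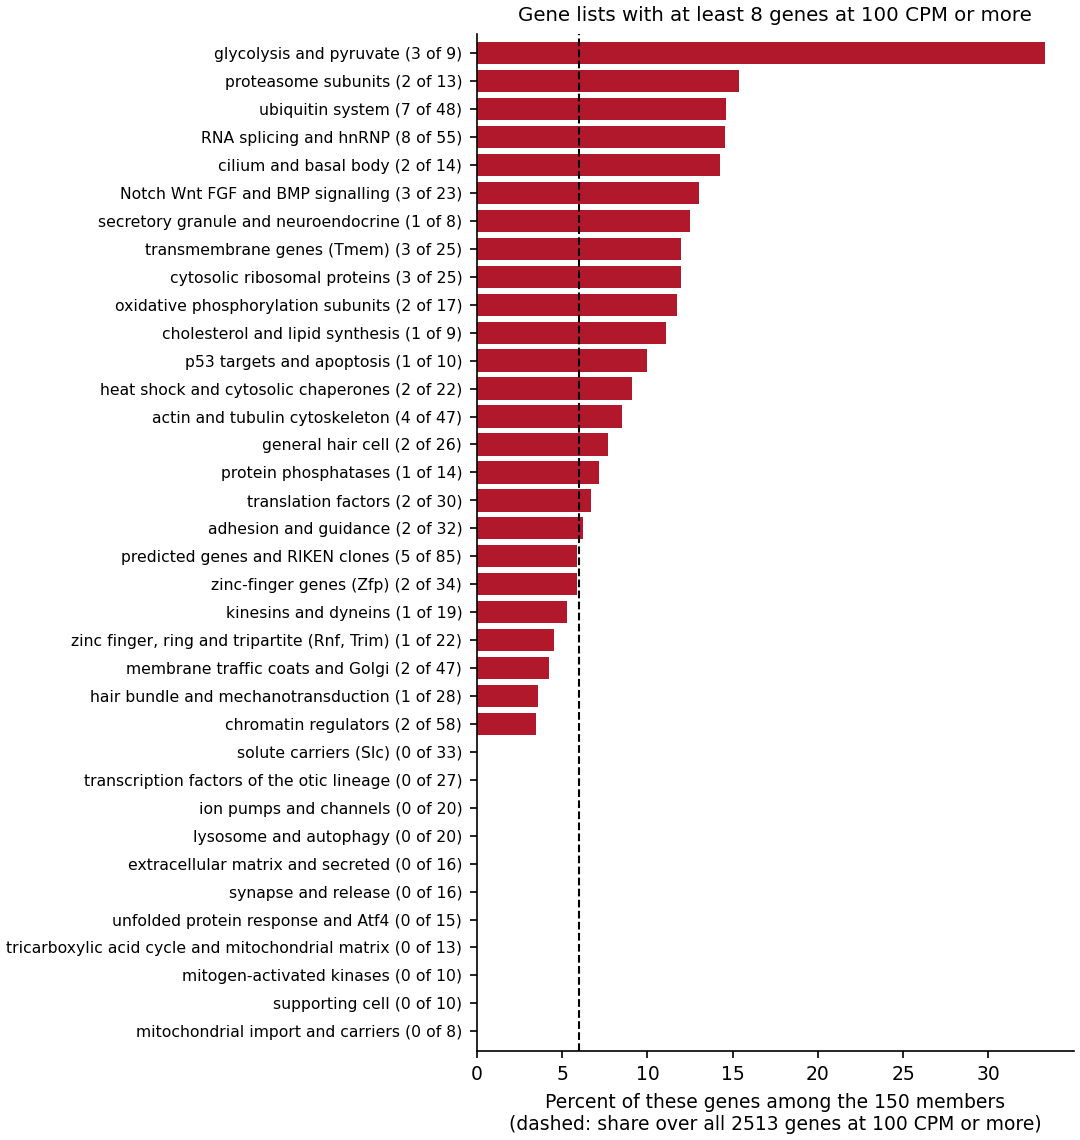
Percent of the genes at 100 CPM or more on each list that are members, with the numbers in brackets, for lists with at least 8 such genes; the dashed line is the 5.97% of all 2513 genes. The glycolysis, proteasome, ubiquitin and splicing lists lie to the right of the line, as do others such as the cilium, Notch and secretory granule lists. The solute carrier, ion channel, synapse and otic transcription factor lists have 0 members, as do others such as the lysosome, tricarboxylic acid cycle and unfolded protein response lists.

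At the edge of the list the values ran on without a gap. The members just inside were Mfsd1, Ust and B3galt5, with deviations of -1.13, -1.13 and -1.13. Those just outside were 2310008H09Rik, Txnl1 and Trove2, with -1.12, -1.12 and -1.12. B3galt5, a galactosyltransferase, had 74.6 CPM in KO replicate 3, 109.5 and 145 CPM in KO replicates 1 and 2 and 218, 220.2 and 155 CPM in Het replicates 1 to 3, and Txnl1, a thioredoxin-like gene that was not taken, had 55.1 CPM in KO replicate 3, 156 and 75.5 CPM in KO replicates 1 and 2 and 113, 135 and 142 CPM in Het replicates 1 to 3.

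Scaling bears on the size of these values. With TMM factors in place of library totals, the median deviation of all genes at 100 CPM or more in KO replicate 3 moved up to 0.13. The median of the members moved to -1.25, and the distance between both stayed at -1.38. Because 1 factor applies to a whole library, all genes shift nearly alike. The distance and the order of genes could thus hardly change, and they do not test the members. Of the members, 146 still had a mean of 100 CPM or more, and these 146 were again among the 150 lowest.

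To compare genotypes without the library that ranked the members, KO replicates 1 and 2 were compared with Het replicates 1 to 3 by edgeR's quasi-likelihood test over 12401 genes, in which all 150 members were tested. These 5 libraries also entered the rule, through their mean, so they are not independent of it. After Benjamini-Hochberg adjustment, 0 members passed a threshold of 0.05, beside 0% of all genes tested, and the smallest adjusted p of a member was 0.776. At an unadjusted p under 0.05, 6 members were higher in KO and 6 lower, which is 4% each, beside 2.44% of all tested genes higher and 3.06% lower. Among the 2513 genes at 100 CPM or more the shares were 3.38% higher and 2.59% lower, so the members' counts lay near the background. DESeq2's Wald test passed 1 member after adjustment, Tbc1d19 (0.667% of members), beside 0.583% of genes. At an unadjusted p under 0.05 it had 7 members higher (4.67%) and 8 lower (5.33%), beside 3.04% and 4.45% of genes.

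The fitted log2 fold changes, KO over Het without KO replicate 3, had a median of 0.02 over the members, 0.01 over the 2513 genes and -0.02 over all tested. They were above 0 for 80 members and below 0 for 70. KO replicates 1 and 2 lay both below every Het library for 19 members (12.7%), beside 11.8% of the 2513 genes, and both above for 17 (11.3%), beside 9.99%. At this number of samples, no shift of the members in KO replicates 1 and 2 that went beyond that of all genes was detectable.

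**Figure D5:**
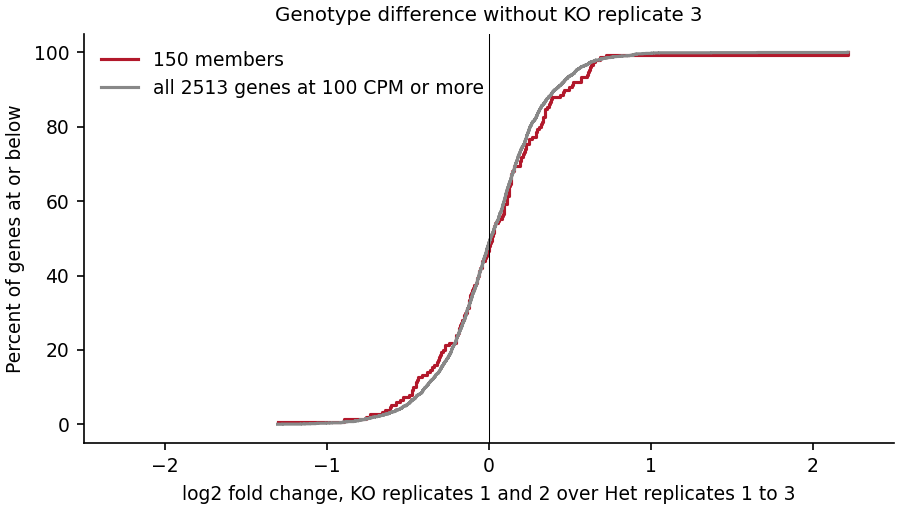
Cumulative percent of genes at or below each log2 fold change of KO replicates 1 and 2 over Het replicates 1 to 3, for the 150 members and for all 2513 genes with a mean of at least 100 CPM. Both curves cross 0 near the middle, with medians of 0.02 and 0.01.

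The 5 members with the smallest p in that fit were Ext2, Tbc1d19, Arhgap32, Sub1 and Kpna6, and none passed the adjusted threshold in edgeR. Ext2 had a log2 fold change of 2.22 (SE 0.57; adjusted p = 0.776), which rests on KO replicate 2. Tbc1d19, which holds a TBC domain typical of Rab GTPase regulators, had 75.8 and 48.1 CPM in KO replicates 1 and 2, against 175, 171 and 123 CPM in the Het libraries, and a log2 fold change of -1.30 (SE 0.35; adjusted p = 0.783). In this gene KO replicate 3, at 45.8 CPM, sat beside KO replicate 2 at 48.1 CPM, and all 3 KO libraries lay below all 3 Het libraries. Arhgap32, a GTPase-activating protein, had 115 and 106 CPM in KO replicates 1 and 2, against 193, 211 and 225 CPM in the Het libraries, and a log2 fold change of -0.89 (SE 0.27; adjusted p = 0.816). Sub1 had a log2 fold change of -0.66 (SE 0.23; adjusted p = 0.866). Kpna6, an importin alpha that carries proteins into the nucleus, went the other way, with 278 and 292 CPM in KO replicates 1 and 2, against 196, 166 and 209 CPM in the Het libraries, and a log2 fold change of 0.62 (SE 0.23; adjusted p = 0.866). The 60.4 CPM of Kpna6 in KO replicate 3 was nevertheless below every other library, so that the KO libraries lay on both sides of the Het range.

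The fit over all 6 libraries contains the library that chose the members, and nothing is read from it. In it, 0 members passed the adjusted threshold in edgeR, beside 0% of 11714 genes. At an unadjusted p under 0.05, 15 members (10%) were lower, beside 2.15% of all tested genes and 2.11% of the genes at 100 CPM or more. By the same measure 0 were higher, beside 3.19% and 4.85%. DESeq2 passed 1 member after adjustment, Tbc1d19 (0.667% of members), beside 0.302% of genes. Its unadjusted counts were 13 lower (8.67%), beside 3.35%, and 0 higher, beside 3.86%. The median log2 fold change of the members was -0.32.

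Features that the rule did not use were compared between the members, the 150 genes with the highest deviations in KO replicate 3 and all 2513 genes. The members had shorter transcripts. The median length of the longest annotated transcript, in bp, was 3534 in the members, 4739 in the genes highest in the library and 4627 in all. Coding length, in bp, had medians of 1238 in the members, 2217 in the genes highest in the library and 1845 in all, and the gene span in bp was 26966 in the members, 50743 in the genes highest in the library and 44678 in all. The number of exons had a median of 9.5 in the members, 13 in the genes highest in the library and 12 in all. By quartiles of transcript length from shortest to longest, 10.05, 5.29, 5.26 and 3.37% of genes were members. Across 2501 genes, the Spearman correlation of the deviation with transcript length was 0.13 in KO replicate 3 and -0.21 to 0.08 in the other libraries. These genes share a library and are not independent, and a correlation of this size describes little of the spread.

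The median GC content of transcripts, in percent, was 47.8 in the members, 51.1 in the genes highest in the library and 48.2 in all, and its Spearman correlation with the deviation over the same genes was 0.17 in KO replicate 3, against -0.17 to 0.11 elsewhere. All 150 members are annotated as protein-coding, beside 99.6% of the genes at 100 CPM or more. They are spread over all autosomes and the X chromosome, with 15 on chromosome 4 and 14 on chromosome 2 at the most. These are 10% and 9.33% of the members, beside 6.56% and 8.44% of the genes at 100 CPM or more.

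Promoters, taken as 250 bases before to 50 after the most upstream listed start, were matched for 121 members, 115 of the highest genes, 1997 of the 2513 genes and 27025 genes in all. The motif GGGCGG, on either strand, occurred in 75.2% of members' promoters, 66.96% of those of the genes highest in the library, 71.2% of those of all genes at 100 CPM or more and 35.9% of all listed promoters. CCAAT occurred in 41.3% of members' promoters, 34.8% of those of the genes highest in the library, 37.2% of those of all genes at 100 CPM or more and 38.02% of all listed promoters. TGACGT was found in 19.8% of members' promoters, 21.7% of those of the genes highest in the library, 13.9% of those of all genes at 100 CPM or more and 7.59% of all listed promoters, so that the members and the highest genes both lay above the share of all genes at 100 CPM or more. For CCGGAAG the shares in members, in genes at 100 CPM or more and in all promoters were 15.7, 15.7 and 9.14%, for TATAAA 8.26, 6.86 and 14.2%, for CAGATG 9.09, 10.3 and 17.3% and for CAGCTG 14.9, 12.8 and 16.1%. The members' promoters had a median of 25 CpG and 63.3% GC, beside 25 and 64.3% over the genes at 100 CPM or more, so that the members' promoters were close to those of other genes in these counts. A match to letters is a description and not a binding site.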

How the data were processed

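Whole-number read counts per gene symbol were deposited by the authors, 1 file per library, without normalization. Trimmomatic, STAR and HTSeq with build GRCm38 (mm10) are named per the submitters' processing notes. Not given in the sources used here are versions, gene annotation, strandedness of counting and the handling of reads with several matches. Per the labels' protocols, random hexamers primed the first strand and the product was amplified before adaptors were ligated, which can change the proportions of transcripts in small samples.

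CPM were computed from library totals, and deviations from log2(CPM + 1). Genotypes were compared with edgeR 4.0.16 in R 4.3.3 (glmQLFit and glmQLFTest, genotype as the only term, TMM, filterByExpr with a minimum count of 10 and a minimum total of 15, Benjamini-Hochberg adjustment over all genes tested, threshold 0.05). SE is the log2 fold change over the square root of F. The scripts were tested on simulated data. Alternatives were DESeq2 1.42.0, other scalings, filters, thresholds and pseudocounts, the replicate number as a block, and leaving out each library. Gene features came from GENCODE M21 on GRCm38, and promoters from RefSeq on GRCm38.p6. All 150 members matched a GENCODE gene, and 121 a promoter.

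The members and the 54 gene lists were chosen with earlier results of these data known, so no list is independent evidence. Named genes were the 10 members with the lowest deviation, the 10 with the highest mean CPM over the other 5 libraries, the 2 lowest members of each list, the 3 genes on each side of the threshold and the 5 members with the smallest p without KO replicate 3. The members named beyond that rule (Arpc5, BC031181, Cetn2, Cul4a, Cul4b, Ext1, Hnrnpa0, Hnrnpul2, Pdhb, Rps3a, Srsf1, Srsf3, Ube2k and Usp24) were chosen after their values were seen. A few genes that the rule names are not reported here.

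Where exons of neighbouring genes overlap, their reads could not be assigned here, because strandedness is not stated. This holds for 45 of the 150 members, among those named Atp5d, Azin1, Cct8, Cdkn1a, Cetn3, Ctnna1, Ctnnb1, Hist1h1e, Hnrnpd, Hnrnpm, Hnrnpr, Hnrnpul2, Icmt, Kif2a, Ppp1cb, Rnf114, Rps3, Shoc2 and Srsf1, whose values are uncertain to that extent.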

Additional observations from a re-analysis of the deposited data

How the results depend on the processing

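Each member had at least 103 counts in KO replicate 3, although amplified reads do not give the number of molecules sampled. Further limits lie in 1 library per deviation and 2 or 3 libraries per genotype. The members depended most on the expression minimum: 35 of the 150 were among the 150 lowest at a minimum of 50 CPM, where 4451 genes could be chosen, and 55 at 200 CPM, where only 55 members could be. Between 145 and 150 members were shared with TMM, median-ratio scaling or pseudocounts of 0.5 and 5. A scaling factor shifts all genes of a library nearly alike, so it could hardly change their order. With the median of the other 5 libraries 137 were shared. Leaving out each of the other libraries, 131 to 136 were shared, where only 139 to 143 members could be. The median deviation was -1.41 to -1.36 leaving out each, -1.25 with TMM and -1.23 with median-ratio scaling. For single named members 489 deviations were recomputed. Settings in which a gene's mean fell under 100 CPM were left out, such as Zfp329 without Het replicate 3. Of the 489, 0 changed sign, which deviations of -1.13 or lower could hardly do under these settings. A move of more than 1 SD of the other libraries was seen in 4: Dhrs1 with a pseudocount of 5 (-2.78), and Ctnnb1 (-1.02), Hnrnph1 (-1.18) and Dld (-1.48) with TMM.

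Without KO replicate 3, the 0 members passing became 1 with DESeq2 (Tbc1d19), 1 with no filter (Ext2) and 0 to 1 leaving out each library (Ext2 without KO replicate 1, where the lone KO sample is assumed to vary like the Het samples). Over all genes, 0 passed in edgeR, 90 with DESeq2 and 38 with no filter. With all 6 libraries the 0 members became 1 with DESeq2 (Tbc1d19) and 2 with no filter (Ext2 and Sub1), and stayed at 0 leaving out each library. Over all genes, 0 passed in edgeR, 46 with DESeq2 and 67 with no filter. The median log2 fold change without KO replicate 3 was -0.03 to 0.04 leaving out each, -0.01 with library totals and 0.04 with the replicate block. That block, the replicate number as a term, passed 0 members in either fit (4 genes in all without KO replicate 3 and 1 with all 6). Deviations of same-numbered samples correlated at 0.01 in all 3 pairs, beside -0.03 to 0.02 in the other pairs. No sign of pairing by number was thus seen, but a correlation over all genes cannot exclude a shared litter or preparation. The causes of these changes were not tested.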

Other observations

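A few genes that share a complex or list with a member had positive deviations in KO replicate 3. They were picked with their values in view, carry no test and do not describe their lists: 0 of 25 ribosomal protein genes and 0 of 22 heat shock and chaperone genes at 100 CPM or more were among the 150 highest deviations, and 13 and 16 of them lay below 0. Rpsa, a ribosomal protein of the small subunit like the member Rps3, had a deviation of 0.89, beside -1.57 for Rps3. Rpsa had 179 CPM in KO replicate 3, 76.7 and 129 CPM in KO replicates 1 and 2 and 91.3, 93.5 and 97.9 CPM in Het replicates 1 to 3. Cct3, a subunit of the same chaperonin as the member Cct8, had a deviation of 0.80, beside -1.52 for Cct8. Cct3 had 299 CPM in KO replicate 3, 235 and 183 CPM in KO replicates 1 and 2 and 154, 189 and 118 CPM in Het replicates 1 to 3, so KO replicate 3 was the highest library for Cct3 and the lowest for Cct8. The ATP synthase gene Atp5g3 had a deviation of 1.05, beside -1.68 for Atp5d. In the Notch pathway, Notch1 (1.14) and the ligand Jag1 (1.01) stood high where Jag2 (-1.34) and Mib1 (-1.95) stood low, and Jag1 is also a supporting cell marker. Scap, the sterol sensor that escorts the product of Srebf2 from the endoplasmic reticulum, had a deviation of 1.53, beside -1.54 for Srebf2.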
